A study of Mus musculus with 32 samples.

Results

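Gene expression was compared between the distal and the proximal end of the mandible in control mouse embryos at embryonic day 13.5. The groups were chosen by their labels alone: 4 arrays of the distal end and 4 of the proximal end, 8 of the 32 arrays of the series. All embryos carried the strain label C57B6 and came from crosses of Wnt1cre;Alk5fl/+ with Alk5fl/fl mice. Controls were littermates of the mutants, and the labels do not say which controls carried the Cre transgene or a deleted allele. The same division into ends was also examined on 8 arrays of the Alk5 knockout mandible and 8 arrays of the control maxilla, with 4 arrays per end each. In the arrays labelled knockout, called knockout below, the labels give a deletion of Alk5, which encodes a type I TGF-beta receptor and is listed as Tgfbr1, by Wnt1cre, which acts in the neural crest and its descendants, and mutants were recognised by their palate and skull defects. The labels do not define where the jaws were cut, whether an array stands for 1 embryo or a pool, or whether arrays of different number came from separate embryos. The p-values therefore measure only how far arrays scatter, which may be partly technical, with the spread taken from all 32 arrays of the series.

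The mandible grows from the first pharyngeal arch. Neural crest cells of the arch give rise to its cartilage, bone, tendon and connective tissue, mesoderm gives the muscle fibres, and ectoderm and endoderm give the epithelium. Along the proximal-distal axis, endothelin signalling through the Dlx homeobox genes and the Hand genes marks the ventral and distal arch, BMP4 is known as a distal signal, SHH is an epithelial signal of oral and dental tissue, and Barx1 is known from the proximal molar region. At this stage Meckel's cartilage, mandibular bone, the tongue and the chewing muscles are forming.

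Values are log2 expression levels made with RMA, so a difference of 1 is a 2-fold difference, and every difference below is distal minus proximal unless stated otherwise. The mandible label was checked against jaw-identity genes. Hand2 averaged 13.47 ± 0.10 in distal and 11.38 ± 0.51 in proximal control mandible (SD, n = 4 each), against 8.47 ± 0.70 in distal and 7.91 ± 1.90 in proximal control maxilla. The lower-jaw homeobox gene Pitx1 averaged 12.23 ± 0.16 and 12.46 ± 0.20 at the distal and proximal ends of the control mandible, against 9.52 ± 0.72 and 9.90 ± 0.71 at those of the maxilla. Tgfbr1 itself read 12.68 ± 0.07 in distal and 12.71 ± 0.08 in proximal control mandible, a difference of -0.02 (adjusted p = 0.953). In the mandible labelled knockout it read 12.96 ± 0.03 in the distal and 12.88 ± 0.07 in the proximal end, so it was not lower there than in the control. Whether its probe set lies in the deleted part was not checked, so this reading does not check the genotype label. Of 2 other Tgfbr1 probe sets past the low-signal filter, both of much lower signal, 1 differed by -0.10 between the ends of the control mandible. The other differed by -0.79, with means of 6.55 in the distal and 7.34 in the proximal end.

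Over the genes tested, the correlation was 0.97 to 0.994 between arrays of the same end and 0.954 to 0.979 between arrays of different ends. The first principal component (41.9% of the variance) separated the ends, the second (25.6%) set the distal and proximal arrays of number 1 apart from the other 6, and the third (14.1%) set distal array 3 apart. The Cre spike-in control read 13.84 and 13.97 on the arrays of number 1 and 12.56 to 13.23 on the other 6. On distal array 3 the 3' probe sets of Gapdh exceeded the 5' ones by 2.23, against -0.15 to 0.12 on the other 7 arrays. Xist was high and the Y-linked Eif2s3y low on the arrays of number 2 at both ends, and the opposite held on the other 6, so this pattern was the same at both ends. Counts of most lists are also given without the 9 arrays in doubt in the series, which are the 8 arrays of number 1 and distal control mandible array 3. That setting was chosen after the data were seen.

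Of 13705 genes tested, 664 (4.84%) passed an adjusted p of 0.05 in limma between the ends of the control mandible. Of these, 314 (2.29%) were higher and 350 (2.55%) lower in the distal end. Counts of called members in the gene lists below are to be read beside these shares. At an unadjusted p under 0.05 there were 2219 genes (16.2%). Of the called genes, 252 (1.84%) differed by at least 1 in size, and 83 (0.606%) were higher by more than 1 and 169 (1.23%) lower by more than 1. The 4 distal and 4 proximal arrays did not overlap for 1534 genes (11.2%), with all distal arrays higher for 738 (5.38%) and all lower for 796 (5.81%), and for 601 (4.39%) this came together with an adjusted p under the threshold. The count of called genes was 738 with only the compared groups in the fit, of which 481 were among the 664. It was 651 without the arrays in doubt, of which 376 were among the 664. It was 342 without proximal array 3 and 366 without distal array 4, and 451 to 722 on leaving out any of the other 6. Of 124 called genes chosen for naming by the rule in the processing section, 74 kept the call whichever of the 8 arrays was left out, and the exceptions are given with each group below. Without the arrays in doubt 48 of the 124 lost the call, among them 12 that no single omission removed.

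**Figure D1:**
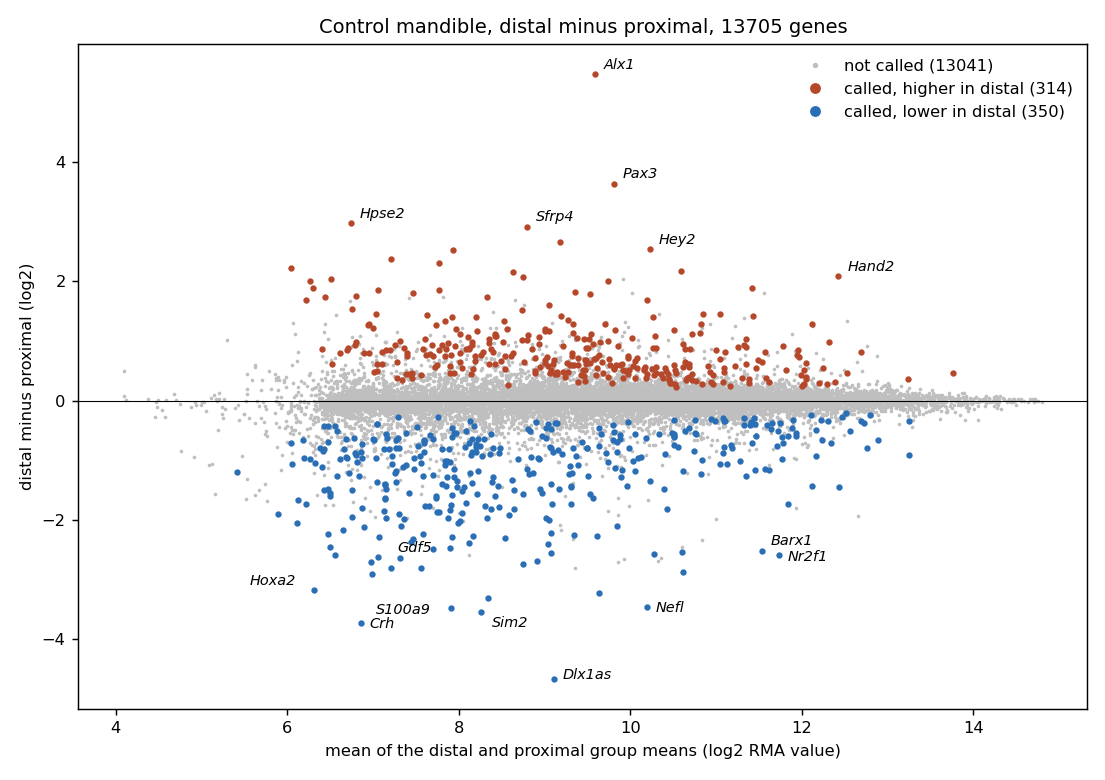
Each point is a gene, with the mean of the distal and proximal group means on the horizontal axis (log2 RMA value) and distal minus proximal on the vertical axis (log2). Red points are the 314 genes called higher and blue points the 350 called lower in distal control mandible, from Alx1 at 5.48 to Dlx1as at -4.67, and grey points were not called.

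Alx1, a homeobox gene needed for the skeleton of the midface, had the largest difference of the called genes. It read 12.37, 12.25, 12.25 and 12.44 on the distal arrays and 6.74, 6.42, 6.60 and 7.65 on the proximal arrays. The 4 distal arrays were closely grouped (SD 0.10) while 2 proximal arrays were under the low-signal filter level, and the groups did not overlap. The difference was 5.48 ± 0.47 (SE, adjusted p = 9.18e-08 in limma), a 44.5-fold higher level in the distal end. Pax3, a paired-box gene of neural crest and muscle precursors, read 11.58, 11.76, 11.52 and 11.66 in the distal and 8.23, 8.25, 7.39 and 8.08 in the proximal end. It was thus high on every distal array, with a difference of 3.64 ± 0.52 (adjusted p = 0.000115). Lhx9, a LIM homeobox gene, differed by 2.37 ± 0.39 (adjusted p = 0.000656), and Tfap2c, an AP-2 factor of ectoderm and crest, by 1.68 ± 0.38 (adjusted p = 0.00884).

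These 4 were the members called higher among 52 measured transcription factors of jaw, tooth and palate. A further 6 were called lower and 42 did not pass. The list median was 0.10, beside a median of 0 over all genes tested. Nr2f1, an orphan nuclear receptor of the COUP family, read 10.07, 10.35, 11.26 and 10.02 on the distal arrays and 13.20, 13.12, 13.11 and 12.70 on the proximal arrays. All proximal arrays lay above all distal arrays, by -2.60 ± 0.36 (adjusted p = 8.79e-05), and its relative Nr2f2 was lower by -1.46 ± 0.32 (adjusted p = 0.00644). The other lower members were the homeobox genes Gbx2 (-1.90), Meis1 (-1.18), Six2 (-1.02) and Pitx3 (-0.76). For Gbx2, proximal array 1 read 6.04 against 6.89 to 7.56 on the other proximal arrays, and for Meis1 it read 9.92 against 10.62 to 11.14, so this array lay nearer the distal ones. Msx1 and Msx2, known as distal jaw genes, differed by 0.91 (adjusted p = 0.523) and 1.81 (adjusted p = 0.191), and Alx4 by 0.74 (adjusted p = 0.163). For these 3 genes all distal arrays lay above all proximal arrays, as they did for 738 (5.38%) of all genes tested. The test takes its spread from all 32 arrays, and with only the compared groups in the fit 11 members of the list were called higher and 8 lower. Pitx1 differed by -0.23 and Isl1 by 0.72, with adjusted p of 0.832 and 0.671. Pitx3 lost its call when distal array 4 or proximal array 3 was left out, with adjusted p up to 0.0687. When the arrays in doubt were left out, 3 members were called higher and 7 lower, and Tfap2c (adjusted p = 0.147) and Nr2f2 (0.0515) were not called.

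**Figure D2:**
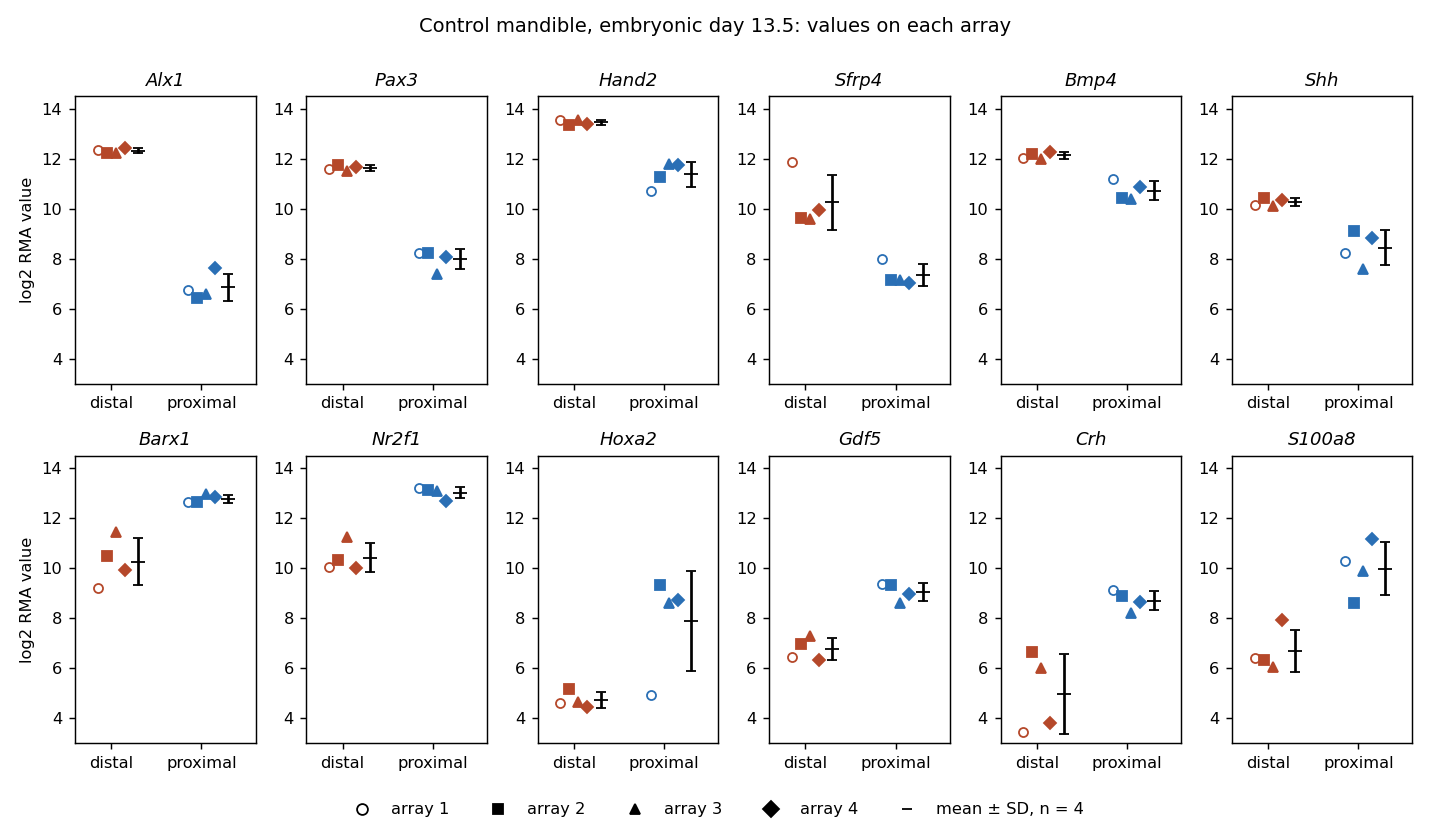
Log2 RMA values of 12 genes on each control mandible array, distal arrays left (red) and proximal arrays right (blue), with a symbol for each array number and the mean and SD of 4 arrays as a black bar. Alx1, Pax3, Hand2, Sfrp4, Bmp4 and Shh (top) are higher on all distal arrays, and in the lower row proximal array 1 of Hoxa2 (4.95, open circle) lies among the distal arrays.

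Of the endothelin, Dlx and Hand genes, 3 of 18 measured members were called higher, 3 lower and 12 did not pass (list median -0.25). The counts were 2 higher and 7 lower with only the compared groups in the fit, and 3 higher and 7 lower with the replicate block. Hand2, a basic helix-loop-helix factor induced by endothelin in the ventral arch, read 13.56, 13.35, 13.54 and 13.41 in the distal end and 10.71, 11.27, 11.78 and 11.75 in the proximal end. Both ends had high signal and the groups did not overlap, with a difference of 2.09 ± 0.53 (adjusted p = 0.0183). Hand1, its distal relative, was higher by 0.77 (adjusted p = 0.0279) at a lower level, 8.0 ± 0.34 in the distal and 7.24 ± 0.09 in the proximal end. The Notch ligand gene Jag1 was higher by 0.64 (adjusted p = 0.00648). Barx1, a homeobox gene of molar and stomach mesenchyme, read 9.20, 10.48, 11.46 and 9.94 in the distal end and 12.66, 12.67, 12.99 and 12.86 in the proximal end. Its proximal arrays were tightly grouped and its distal arrays spread widely, and the difference was -2.52 ± 0.69 (adjusted p = 0.0311). Dlx6os1, a noncoding RNA from the Dlx5 and Dlx6 locus, was lower by -2.10 (adjusted p = 0.0254), and Dlx4 by -1.55 (adjusted p = 0.00102).

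The other Dlx genes did not pass the test. Dlx1, Dlx2, Dlx5 and Dlx6 differed by -1.67, -0.67, -0.98 and -1.21 with adjusted p of 0.105, 0.242, 0.0867 and 0.153. For each of the 4 genes all distal arrays lay below all proximal arrays, as they did for 796 (5.81%) of all genes tested. Of the 18 endothelin, Dlx and Hand genes, 7 had all distal arrays below and 3 had all above. Dlx1as, transcribed antisense to Dlx1, read 5.16, 6.82, 8.84 and 6.29 in the distal end and 11.14, 11.84, 11.53 and 11.27 in the proximal end. The distal arrays were low but spread widely, and the difference was -4.67 ± 0.93 (adjusted p = 0.00318), the largest among genes called lower and the only call among 10 measured brain and pituitary genes (list median -0.12). The strand that probes detect was not checked here, so Dlx1as and Dlx1 may not be fully separable, nor Dlx6os1 and Dlx6 or Dlx4os and Dlx4. Hand2 lost its call when proximal array 1 was left out (adjusted p = 0.0654). Dlx6os1, Hand1 and Barx1 lost theirs in 4, 5 and 7 of the 8 omissions, with adjusted p up to 0.0925, 0.125 and 0.0894. Without the arrays in doubt 1 member was called higher and 2 lower, Hand2 differed by 1.78 (adjusted p = 0.206), and Hand1 and Dlx6os1 were not called.

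Among 11 measured Hox genes, which give the hindbrain and posterior arches their identity and are silent in the first arch, Hoxa2 was called lower and the other 10 did not pass (list median -0.33). Hoxa2, the selector gene of the second arch, read 4.63, 5.17, 4.65 and 4.45 on the distal arrays, all under the filter level. It read 4.95, 9.34, 8.62 and 8.73 on the proximal arrays, so that proximal array 1 lay among the distal ones and the other 3 proximal arrays lay far above them. The difference was -3.19 ± 0.81 (adjusted p = 0.0184). It lost the call in 4 of the 8 omissions, with adjusted p up to 0.0863, and was -2.71 to -4.18 across them. With the arrays in doubt left out, 2 Hox members were called lower. The members next in size were Hoxd1 (-2.09, adjusted p = 0.437) and Hoxb2 (-0.84, adjusted p = 0.255). Of 22 T-box and forkhead factors, Tbx4, best known from the hindlimb, was called higher (1.20, adjusted p = 0.00291) and Foxl2 lower (-1.23, adjusted p = 0.0449, lost in 6 of 8 omissions, adjusted p up to 0.169).

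BMP genes differed in both directions, with 2 of 28 measured members called higher, 3 called lower and 23 not passing (list median 0). The ligand gene Bmp4 read 12.03, 12.21, 12.01 and 12.29 in the distal end and 11.21, 10.44, 10.38 and 10.86 in the proximal end. All distal arrays lay above all proximal ones, by 1.42 ± 0.32 (adjusted p = 0.0081). Bambi, a decoy receptor induced by BMP signalling, was higher by 1.45 ± 0.31 (adjusted p = 0.00547). Gdf5, a BMP-family ligand of forming joints, read 6.47, 6.99, 7.29 and 6.33 in the distal end and 9.36, 9.33, 8.61 and 8.96 in the proximal end. Its difference of -2.30 ± 0.21 (adjusted p = 1.55e-07) was well outside the spread of either group. Bmper, an extracellular BMP modulator, was lower by -1.83 ± 0.25 (adjusted p = 8.79e-05), and the receptor gene Bmpr1b by -1.55 ± 0.32 (adjusted p = 0.00412). None of these 5 calls was lost when an array was left out, and 2 higher and 3 lower members were called without the arrays in doubt. Of 10 measured joint and perichondrium genes, Gdf5 was called lower, Trps1, a GATA-type repressor of cartilage, higher (1.29, adjusted p = 0.00901), and 8 did not pass.

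Shh and its target Gli1 were the 2 members called higher among 13 measured hedgehog genes, and 0 were called lower (list median 0.18). Shh, the ligand, read 10.16, 10.45, 10.11 and 10.37 in the distal end and 8.23, 9.13, 7.59 and 8.85 in the proximal end, where the arrays spread more. The difference was 1.82 ± 0.37 (adjusted p = 0.00346). Gli1 differed by 0.68 (adjusted p = 0.0366) and its groups overlapped, since proximal array 1 read 9.82 against 8.75 to 9.11 on the other proximal arrays and 9.59 to 10.13 on the distal arrays. The receptor gene Ptch1, also a target, differed by 0.51 (adjusted p = 0.0687). Gli1 lost its call in 6 of 8 omissions (adjusted p up to 0.158). With the arrays in doubt left out, 3 members were called higher and 0 lower.

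Among 47 measured Wnt pathway genes 5 were called higher, 2 lower and 40 did not pass (list median 0.13). Sfrp4, which encodes a secreted Wnt-binding antagonist, read 11.88, 9.64, 9.58 and 9.94 in the distal end and 8.0, 7.17, 7.16 and 7.03 in the proximal end. The arrays of number 1 were the highest of each end, and the groups did not overlap. The difference was 2.92 ± 0.34 (adjusted p = 1.08e-05), and it was 2.38 without distal array 1, still called. Its relatives Sfrp1 and Sfrp2 went the other way, at -1.27 ± 0.31 (adjusted p = 0.0129) and -0.92 ± 0.20 (adjusted p = 0.00732). The other members called higher were Rspo3, a Wnt-enhancing secreted factor (1.11), the epithelial ligand gene Wnt7b (0.95), the Wnt deacylase gene Notum (0.93) and Sostdc1, an antagonist of WNT and BMP in teeth (0.92). Sostdc1 and Wnt7b lost their calls in 4 omissions each (adjusted p up to 0.121), Sfrp1 without distal array 4 or proximal array 1 (up to 0.0517) and Notum without proximal array 3 (0.0523). With the arrays in doubt left out, 3 members were called higher and 0 lower, and Sfrp2 had an adjusted p of 0.0792. The counts were 13 higher and 5 lower with only the compared groups in the fit.

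Of 23 measured fibroblast growth factor genes, 3 were called lower and 1 higher (list median 0). The lower count was 1 without distal array 4, proximal array 1 or proximal array 3, and the counts were 3 lower and 2 higher without the arrays in doubt. Fgfr4, a receptor gene of muscle precursors, was lower by -1.28 ± 0.25 (adjusted p = 0.00254), the mesenchymal ligand gene Fgf7 by -1.61 ± 0.41 (adjusted p = 0.0193) and Fgf12, an intracellular family member of neurons, by -1.19 ± 0.35 (adjusted p = 0.0498). Fgfr2, whose epithelial form receives FGF7, was higher by 0.62 ± 0.14 (adjusted p = 0.00782). Fgf8, a first-arch epithelial signal at earlier stages, read 6.26 to 7.80 in the distal and 6.37 to 7.10 in the proximal end, and did not pass (0.38, adjusted p = 0.814). Fgf7 lost its call in 4 omissions (adjusted p up to 0.094) and Fgf12 in 6 (up to 0.225).

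Retinoic acid genes called at all were lower in the distal end, 3 of 15 measured members with 12 not passing (list median -0.31). Cyp26a1, which breaks retinoic acid down, read 7.82, 8.16, 8.74 and 8.11 in the distal end and 9.55, 9.69, 9.79 and 9.72 in the proximal end. The proximal arrays were closely grouped (SD 0.10), and the difference was -1.48 ± 0.26 (adjusted p = 0.00104). The retinoid receptor gene Rxrg was lower by -1.52 ± 0.28 (adjusted p = 0.00157) and the retinol transporter gene Stra6 by -1.40 ± 0.25 (adjusted p = 0.00157). None of the 3 calls was lost on leaving out an array, and 3 lower and 0 higher members were called without the arrays in doubt.

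Of 18 measured Notch genes, Jag1 and the target repressor genes Hey2 (2.54 ± 0.74, adjusted p = 0.0444) and Hey1 (0.62, adjusted p = 0.0449) were called higher, with a list median of 0.15. Hey2 read 11.21 to 11.82 on the distal arrays and 7.89 to 9.43 on the proximal arrays, and it nonetheless lost its call in all 8 omissions (adjusted p up to 0.147), as Hey1 did in 7 (up to 0.129). Of 24 measured TGF-beta and activin genes 1 was called higher and 2 lower (12.5% called, beside 4.84% of all genes tested). The inhibitory Smad7 was higher by 0.57 (adjusted p = 0.0421). The ligand gene Tgfb2 (-0.62, adjusted p = 0.0269) and the matrix target Tgfbi (-0.99, adjusted p = 0.0184) were lower. Smad7, Tgfb2 and Tgfbi lost their calls in 7, 5 and 4 omissions, with adjusted p up to 0.163, 0.131 and 0.0914. Of 46 guidance genes, Unc5c (1.13, adjusted p = 0.00934) and Ntn4 (0.76, adjusted p = 0.0368) were called higher. Flrt2 (-0.94, adjusted p = 0.00111), Flrt3 (-0.72), Nrp2 (-0.51) and Sema5b (-1.08) were called lower. Nrp2 had 3 further probe sets past the filter, of which 1 had the opposite sign. Ntn4 lost its call in 6 omissions (adjusted p up to 0.128), Sema5b in 5 (up to 0.163), Flrt3 without distal array 4 or proximal array 3 (up to 0.0588) and Nrp2 without distal array 4 (0.0656). The Notch list without the arrays in doubt had 1 member called higher and 0 lower, the TGF-beta list 0 higher and 1 lower, and the guidance list 0 higher and 3 lower, with Unc5c at an adjusted p of 0.0901.

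Skeletal muscle genes were lower in the distal end. Of 41 measured sarcomere and excitation-contraction genes, 27 were called lower, 0 higher and 14 did not pass, and 39 of the 41 differences were negative. The list median was -1.88, against 0 over all genes. The mean over the list was 8.35, 7.53, 7.84 and 7.01 on the distal arrays and 9.61, 8.91, 9.58 and 9.52 on the proximal arrays, so the groups did not overlap. Fewer muscle fibres and less of these transcripts in each fibre cannot be told apart in whole tissue, and the same holds for every cell type below. The largest called members were the light chain Myl1 (-2.88), the heavy chain Myh8 (-2.71), the troponins Tnnt2 (-2.69) and Tnni1 (-2.57), Klhl41, which stabilises thin filaments (-2.64), and the Z-disc actinin Actn2 (-2.56).

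Rapsn, Chrna1, Mybpc1 and Chrng were among the called members with the smallest adjusted p. Rapsn, which clusters acetylcholine receptors, was lower by -1.29 ± 0.22 (adjusted p = 0.000677). Chrna1, the receptor alpha subunit, read 8.32, 7.66, 7.68 and 7.28 in the distal end and 9.58, 9.03, 9.73 and 9.89 in the proximal end. Every proximal array was above every distal one, by -1.83 ± 0.32 (adjusted p = 0.00109). Chrng, the fetal gamma subunit, read 7.73, 7.18, 7.56 and 6.85 in the distal end, against 9.04, 8.31, 9.0 and 8.79 in the proximal end (-1.45 ± 0.26, adjusted p = 0.00155). Mybpc1, a thick-filament myosin-binding protein, read 7.82, 6.85, 6.90 and 6.35 in the distal end and 8.87, 8.27, 9.02 and 9.11 in the proximal end (-1.84 ± 0.33, adjusted p = 0.00146). Acta1, skeletal alpha-actin, named after its values were seen, read 10.50, 9.05, 9.05 and 8.71 in the distal end and 11.96, 11.24, 12.11 and 12.20 in the proximal end (-2.55, adjusted p = 0.0154). In these 4 genes distal array 1 was the highest and distal array 4 the lowest of the distal arrays. Ldb3 (-2.12) and the muscle methyltransferase gene Smyd1 (-1.88) were called as well.

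Of 20 measured myogenic regulators and fusion genes, 6 were called lower, 13 did not pass and Pax3 was called higher (list median -0.85). Myod1, the master regulator of the lineage, read 9.18, 8.63, 8.58 and 7.53 in the distal end and 10.49, 10.35, 11.14 and 11.04 in the proximal end (-2.27 ± 0.61, adjusted p = 0.0277). Msc, a factor of branchial muscle precursors, was lower by -2.26 (adjusted p = 0.0326). The fusion genes Mymk (-1.77, adjusted p = 0.00226) and Mymx (-2.75, adjusted p = 0.0453), the muscle cadherin gene Cdh15 (-1.79, adjusted p = 0.00167) and Jam3 (-0.57, adjusted p = 0.0183) were also lower. Leaving out 1 array gave 14 to 29 sarcomere calls, all lower, with 14 without distal array 4 and 18 without either proximal array 1 or proximal array 3. Without the arrays in doubt there were 20 (list median -2.26), and 3 myogenic members were called lower. Leaving out 1 array gave 2 to 8 myogenic members called lower, with 8 without distal array 1, 3 without distal array 4 or proximal array 2, and 2 without distal array 3, proximal array 3 or proximal array 4. Of the members named here, Myl1, Tnnt2 and Mymx lost their calls in 7 omissions each (adjusted p up to 0.177), Actn2 in 6 (up to 0.0938), and Tnni1, Myod1 and Msc in 5 each (up to 0.147). Jam3 lost its call in 4 omissions (up to 0.1) and Myh8 without distal array 4 or proximal array 1 (up to 0.0657). The call of Acta1 was not followed through the omissions.

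The promoters of muscle genes are known to carry E-boxes, the sites of MyoD-family factors. The letters CAGCTG, which read the same on both strands, were searched for in the 250 bases before each gene's start in RefSeq (GRCm38.p6). Of the 27 sarcomere genes called lower, 22 had an entry and 13 of these (59.1%) held the letters, beside 3 of 12 (25.0%) uncalled members of the list. Of the genes tested, 10987 had an entry and 14.7% of them held it. The shares were 28.7% of 261 genes called lower with an entry and 17.0% of 223 called higher. Counted by window rather than by gene, the letters occurred in 13.0% of all 32851 windows of this length. A match is not a binding site. The windows of 4 called genes are shown because they hold the motif, which is in capitals, and each runs 5′ to 3′ on the gene's strand. Chrna1 is at chr2:73580339-73580588 (minus strand), Chrng at chr1:87205561-87205810 (plus), Mybpc1 at chr10:88605153-88605402 (minus) and Acta1 at chr8:123894776-123895025 (minus).
Chrna1: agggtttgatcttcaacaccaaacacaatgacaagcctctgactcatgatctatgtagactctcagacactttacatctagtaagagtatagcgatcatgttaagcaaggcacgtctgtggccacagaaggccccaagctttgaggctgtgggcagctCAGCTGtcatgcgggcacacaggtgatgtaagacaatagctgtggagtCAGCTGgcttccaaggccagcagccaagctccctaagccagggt
Chrng: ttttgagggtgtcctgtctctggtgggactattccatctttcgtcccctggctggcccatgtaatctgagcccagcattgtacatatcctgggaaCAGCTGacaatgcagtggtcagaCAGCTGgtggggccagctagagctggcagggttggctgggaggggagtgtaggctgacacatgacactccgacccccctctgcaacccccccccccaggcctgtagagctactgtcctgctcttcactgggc
Mybpc1: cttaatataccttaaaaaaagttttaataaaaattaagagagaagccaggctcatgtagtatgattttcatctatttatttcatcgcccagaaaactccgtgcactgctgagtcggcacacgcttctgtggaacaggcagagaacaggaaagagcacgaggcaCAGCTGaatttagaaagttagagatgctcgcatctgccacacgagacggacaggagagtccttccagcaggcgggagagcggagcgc
Acta1: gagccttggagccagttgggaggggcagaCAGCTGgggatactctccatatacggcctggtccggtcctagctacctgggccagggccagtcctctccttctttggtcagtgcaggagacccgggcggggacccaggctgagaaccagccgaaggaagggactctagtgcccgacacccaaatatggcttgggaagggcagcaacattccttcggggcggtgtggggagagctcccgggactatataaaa
The motif began 92 and 44 bases before the start in Chrna1, 155 and 132 bases before it in Chrng, 87 in Mybpc1 and 221 in Acta1. The other 9 of the 22 called sarcomere genes with an entry did not hold these letters.

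**Figure D3:**
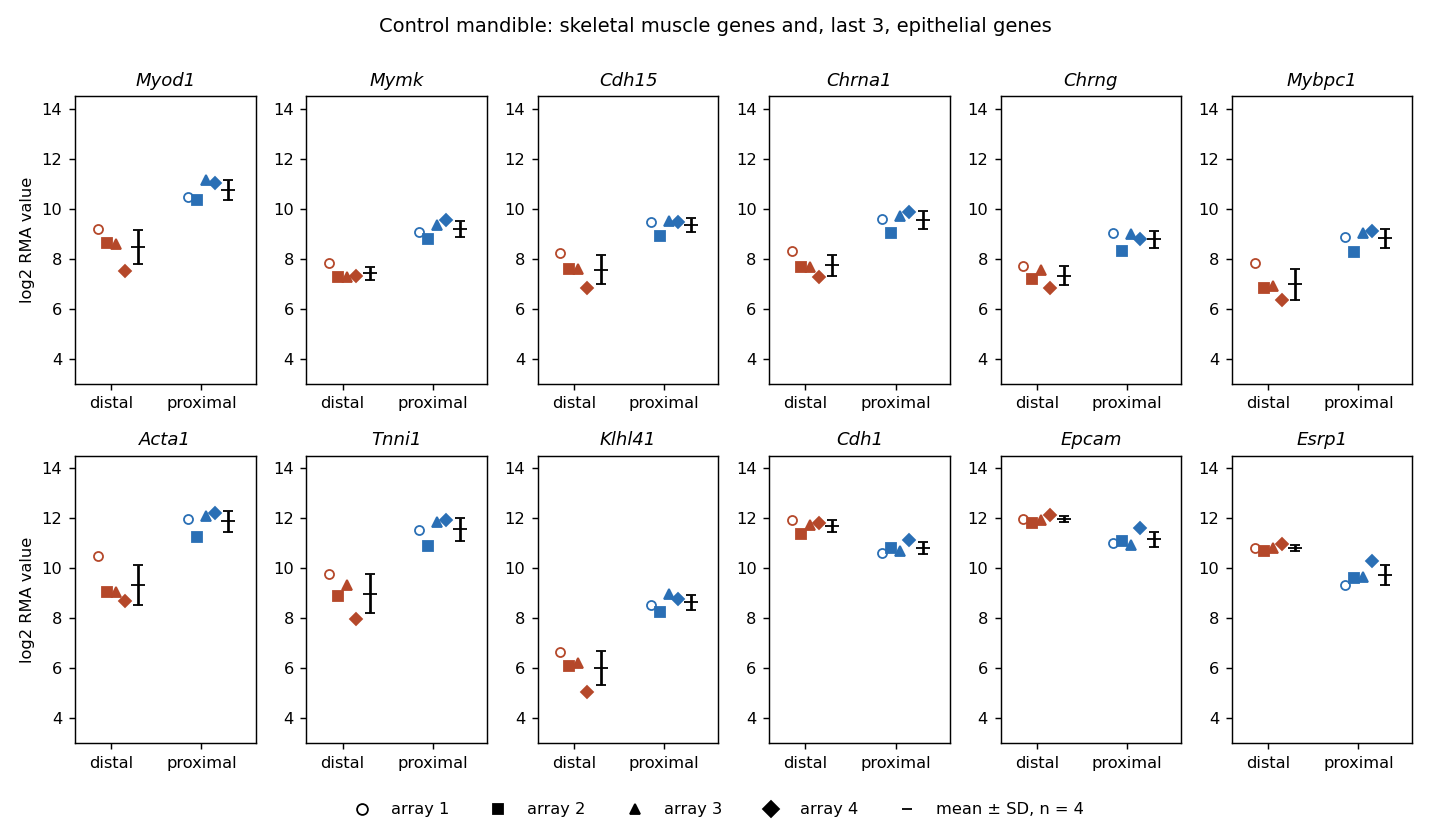
Log2 RMA values of 9 skeletal muscle genes and 3 epithelial genes (Cdh1, Epcam, Esrp1) on each control mandible array, distal arrays left (red) and proximal arrays right (blue), with the mean and SD of 4 arrays as a black bar. The muscle genes are lower and the epithelial genes higher on all distal arrays.

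Most genes of the oral epithelium list were higher in the distal end. Of 27 measured oral epithelium markers 7 were called higher, 0 lower and 20 did not pass, and 25 of the 27 differences were positive (list median 0.89). The mean over the list was 9.76 to 10.46 on the distal arrays and 9.05 to 9.61 on the proximal arrays, without overlap. Besides Shh, the called members were the splicing regulator genes Esrp1 (1.09 ± 0.25, adjusted p = 0.00831) and Esrp2 (1.10, adjusted p = 0.0184), the adhesion genes Cdh1 (0.90 ± 0.21, adjusted p = 0.01) and Epcam (0.81, adjusted p = 0.0136), the desmosome gene Dsp (0.98, adjusted p = 0.0254) and the grainyhead factor Grhl3 (0.89, adjusted p = 0.0429). Cdh1 read 11.94, 11.37, 11.73 and 11.81 in the distal end and 10.62, 10.80, 10.70 and 11.13 in the proximal end. The basal keratin gene Krt14, named after its values were seen, averaged 12.46 ± 0.37 in the distal and 10.65 ± 0.34 in the proximal end and did not pass (1.81, adjusted p = 0.159). Leaving out 1 array gave 3 to 8 calls, with 3 without proximal array 3. Dsp lost its call in 5 omissions (adjusted p up to 0.0904), Esrp2 in 3 (up to 0.0665) and Epcam without distal array 4 or proximal array 3 (up to 0.0641). The call of Grhl3 was not followed through the omissions. Among the 27 there were 2 calls without number 1 and 1 without the arrays in doubt, with list medians of 0.72 and 0.71. In the last setting Esrp1 and Cdh1 had adjusted p of 0.143 and 0.183. Shh, Wnt7b, Fgfr2, Bmp4 and Tfap2c are also expressed in epithelium, and the part of the epithelial share in their differences was not tested.

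Of 12 salivary and tongue epithelium genes, Krt7 was called higher (1.01, adjusted p = 0.0158, lost in 3 omissions) and 0 lower. This made 8.33% called, beside 4.84% of all genes tested. The list median was -0.06, with 8 of the 12 differences below 0 and 4 above. Of 10 ear genes, the homeobox gene Otx1 was called higher (2.16 ± 0.35, adjusted p = 0.000563) and Coch lower (-0.66, adjusted p = 0.0467, lost in 7 omissions). Otx1 read 9.53, 9.35, 9.98 and 9.97 on the distal arrays and 7.46, 7.49, 7.48 and 7.75 on the proximal arrays, a clear gap between the ends.

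Of 26 measured macrophage and leukocyte genes 6 were called lower, 0 higher and 20 did not pass (list median -0.21), and 0 were called without the arrays in doubt. The differences of 22 of the 26 were below 0. S100a8, a calcium-binding protein of neutrophils, read 6.42, 6.33, 6.06 and 7.94 in the distal end and 10.31, 8.61, 9.89 and 11.17 in the proximal end. Array 4 was the highest of each end, and the groups did not overlap (-3.31 ± 0.70, adjusted p = 0.00532). Its partner S100a9 was lower by -3.49 ± 0.72 (adjusted p = 0.0044). The granule genes Ngp (-1.57, adjusted p = 0.0138), Camp (-1.37, adjusted p = 0.0139) and Ltf (-0.79, adjusted p = 0.0488) and the macrophage gene Mpeg1 (-0.68, adjusted p = 0.0499) completed the 6. Between 2 and 5 were called on leaving out an array, with 2 without proximal array 4. S100a8 without the arrays in doubt differed by -2.76 (adjusted p = 0.0947) and S100a9 by -3.17 (adjusted p = 0.0787). Ltf lost its call in all 8 omissions and Mpeg1 in 7 (adjusted p up to 0.177), and Ngp and Camp without proximal array 4 (0.0695 and 0.0661). The mean over the list was 7.78 to 8.18 on the distal and 8.12 to 8.76 on the proximal arrays. Of 9 osteoclast genes, Ctsk (-0.95, adjusted p = 0.00098) and Nfatc1 (-0.90, adjusted p = 0.000628) were called lower and 0 higher.

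Neurofilament genes were lower in the distal end, the only 2 called of 23 measured neuron genes (8.7%, beside 4.84% of all genes tested, list median -0.62). Nefl read 9.43, 9.16, 8.23 and 7.02 in the distal end and 11.70, 11.91, 12.67 and 11.40 in the proximal end (-3.46 ± 0.79, adjusted p = 0.0088). Nefm was lower by -3.24 ± 0.83 (adjusted p = 0.0208). The mean over the neuron list was 7.85 to 8.36 on the distal arrays and 8.36, 9.27, 9.82 and 8.25 on the proximal arrays, so that proximal arrays 2 and 3 were high and 1 and 4 lay near the distal arrays. Proximal arrays 2 and 3 were also the highest in the sensory ganglion list, with 7.02 to 7.22 on the distal arrays and 6.92, 7.89, 8.23 and 6.96 on the proximal arrays, and none of its 15 measured genes was called. The part of nerve content in the neurofilament difference was not tested. Nefl lost its call without distal array 4 (adjusted p = 0.0506) and Nefm in 4 omissions (adjusted p up to 0.0938). None of 14 Schwann cell and glia genes was called. Leaving out the arrays in doubt gave 2 neuron genes and 2 Schwann cell and glia genes called lower.

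Cartilage genes tended to negative differences, with 23 of 27 below 0 and a list median of -0.45. Epyc alone was called (3.7% of the list, beside 4.84% of all genes tested). Epyc, a small proteoglycan of growth cartilage, read 6.20, 5.33, 5.3 and 5.28 in the distal end and 9.49, 9.27, 6.51 and 8.52 in the proximal end (-2.92 ± 0.54, adjusted p = 0.0017). All distal arrays and proximal array 3 were under the filter level. Col2a1, the main cartilage collagen, averaged 11.68 ± 0.48 in the distal and 12.39 ± 0.39 in the proximal end (-0.71, adjusted p = 0.335). Of 15 bone genes 1 was called (6.67%, beside 4.84% of all genes tested). This was Tnfsf11, the osteoclast-inducing RANKL, which was higher (1.54 ± 0.42, adjusted p = 0.0318). It read 7.85, 7.65, 7.61 and 6.98 in the distal end and 7.81, 5.44, 5.15 and 5.54 in the proximal end, so proximal array 1 lay among the distal arrays, and the call was lost in 6 omissions (adjusted p up to 0.149). In cartilage 1 gene was called higher and 1 lower without the arrays in doubt.

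Of 17 tendon and ligament genes 3 were called lower and 0 higher (list median -0.19). They were the matrix genes Thbs4 (-1.74 ± 0.32, adjusted p = 0.00158) and Col14a1 (-1.92 ± 0.45, adjusted p = 0.0107) and the tendon factor Scx (-1.03, adjusted p = 0.0467, lost in 7 omissions with adjusted p up to 0.121). The tenocyte membrane gene Tnmd, named after its values were seen, had a positive difference that did not pass (1.30, adjusted p = 0.155). Among 44 matrix genes 3 were called higher and 3 lower (list median -0.16). Lox, which crosslinks collagen, read 12.34, 11.10, 10.29 and 10.15 in the distal end and 13.34, 12.52, 12.46 and 12.46 in the proximal end (-1.73 ± 0.37, adjusted p = 0.00541). The arrays of number 1 were the highest of each end. Smoc2, a matricellular gene, was lower by -1.17 ± 0.20 (adjusted p = 0.000656) and Col25a1 by -1.07 (adjusted p = 0.0488, lost in 7 omissions). Npnt (1.03, adjusted p = 0.0122, lost without proximal array 2 or 3), Col26a1 (0.51, adjusted p = 0.00768) and the hyaluronan synthase gene Has3 (1.80, adjusted p = 0.0366, lost in all 8 omissions) were higher. Without the arrays in doubt 2 tendon members were called lower and 0 higher, and 1 matrix member was called higher and 2 lower, with Col26a1 at an adjusted p of 0.0618. The mean over the bone list was 10.18 on distal array 1 and 10.83 on proximal array 1, against 9.06 to 9.30 on the other distal and 8.78 to 8.99 on the other proximal arrays, so the arrays of number 1 read highest at both ends. The part of this in the matrix and tendon differences was not tested.

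Of 26 proliferation genes 1 was called (3.85%, beside 4.84% of all genes tested), and the list median was 0.08. The called member was the cyclin gene Ccnd1, lower by -0.67 ± 0.12 (adjusted p = 0.00177). It read 12.47 to 12.69 on the distal arrays and 13.11 to 13.32 on the proximal arrays. None of the 25 endothelial, 9 erythroid, 8 pigment cell, 23 glycolysis and 19 imprinted growth genes was called, with list medians of -0.01, 0.13, -0.38, 0.05 and -0.14. For pigment cell genes, 3 were called lower without the arrays in doubt.

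**Figure D4:**
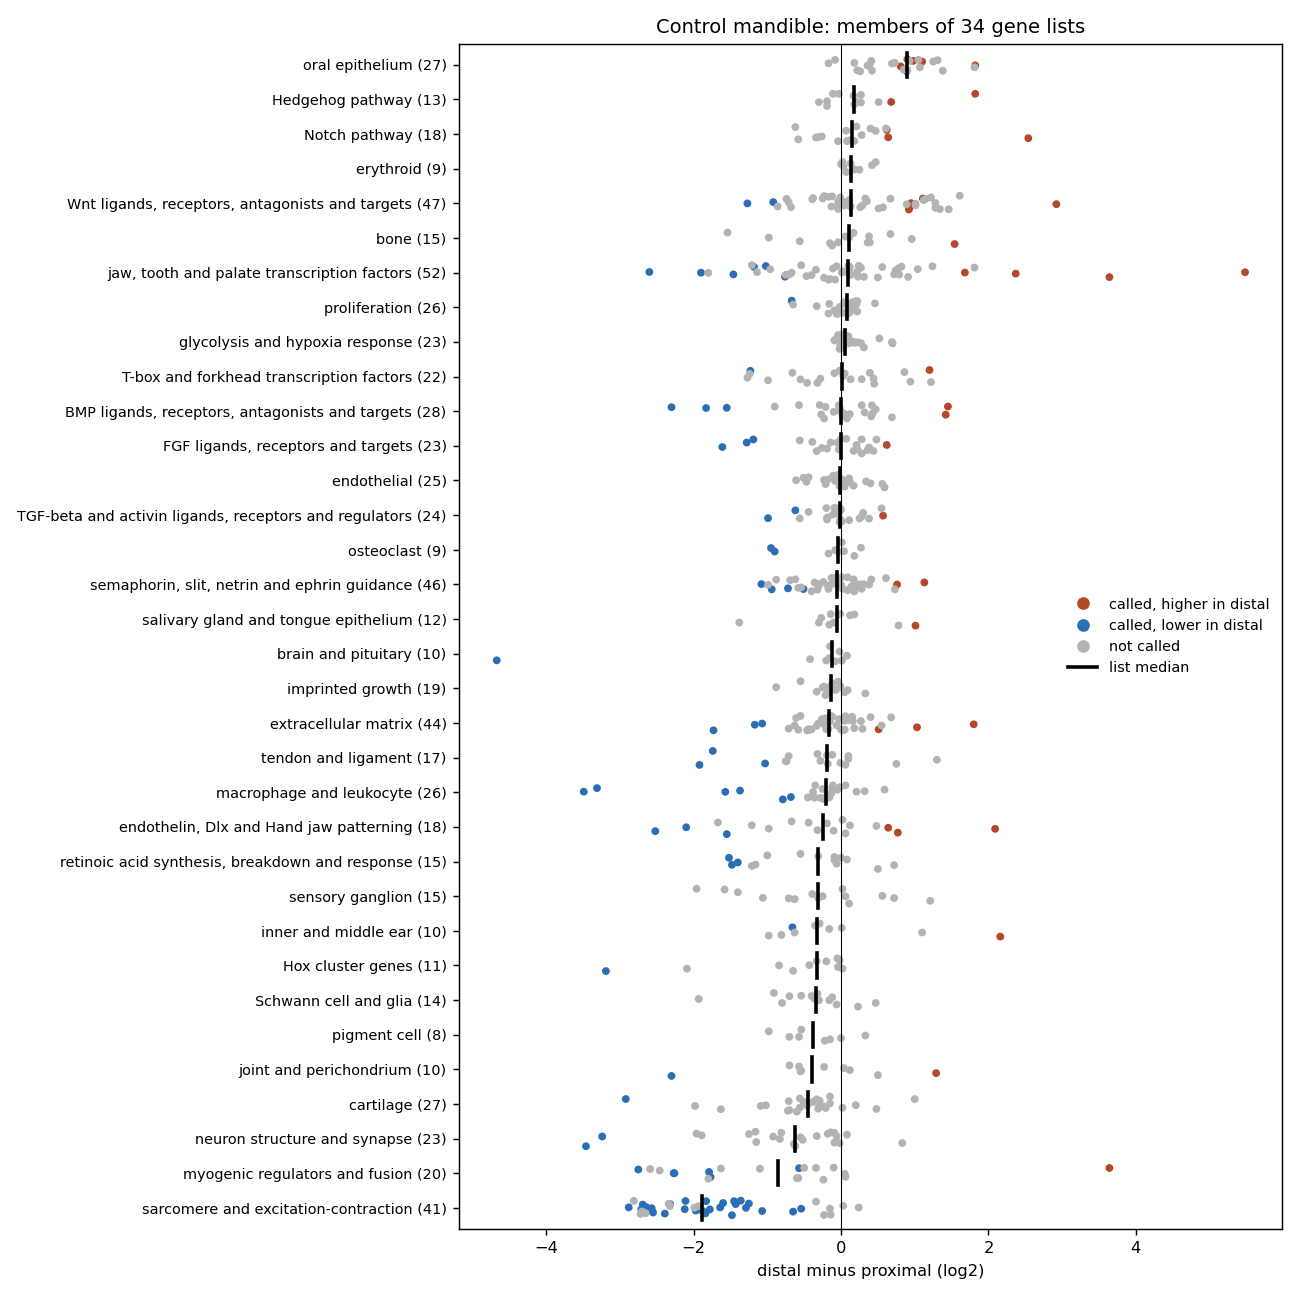
Distal minus proximal differences (log2) of the tested members of 34 gene lists in control mandible, with the number of tested members in brackets, the list median as a black line, red and blue points for members called higher and lower in the distal end, and grey for those not called. The sarcomere list has its median at -1.88 and the oral epithelium list at 0.89, while most lists have medians near 0.

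Outside these lists the leading genes higher in the distal end were Hpse2, a heparanase-like gene (2.98 ± 0.53, adjusted p = 0.00111), the synaptic organiser Cbln4 (2.66 ± 0.47, adjusted p = 0.00111), the scaffold gene Dlg2 (2.53 ± 0.30, adjusted p = 1.08e-05), Insyn2b (2.31) and Hpgd, which degrades prostaglandins (2.17). Cbln4 read 10.29, 10.60, 10.43 and 10.73 on the distal arrays and 8.47, 7.91, 7.54 and 7.50 on the proximal arrays. Dlg2 read 8.98, 9.01, 9.68 and 9.14 in the distal end, against 7.43, 6.48, 6.20 and 6.56 in the proximal end. The noncoding 6330415B21Rik (2.22), Glis3 (2.08), Far2 (2.04), Klhl14 (2.00), the LIM-only gene Lmo1 (2.00), Crip1 (1.89), the prostaglandin receptor gene Ptger2 (1.89) and the GDNF receptor gene Ret (1.86) completed the 20 largest. Ptger2 lost its call in 2 omissions, with adjusted p up to 0.073. Hpse2, Insyn2b and Glis3 were not called without the arrays in doubt (adjusted p of 0.0563, 0.0704 and 0.0629).

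Lower in the distal end, Crh, the corticotropin-releasing hormone gene, read 3.46, 6.67, 6.02 and 3.80 in the distal end and 9.14, 8.88, 8.20 and 8.64 in the proximal end. All its distal values were under the filter level, and the difference was -3.73 ± 0.54 (adjusted p = 0.000138). Sim2, a bHLH-PAS factor, was lower by -3.56 ± 1.04 (adjusted p = 0.044, lost in 7 omissions). The neuronal adhesion gene Slitrk1 (-2.82 ± 0.39, adjusted p = 8.79e-05), Tcf24 (-2.82), the muscle gene Smpx (-2.63) and 3110099E03Rik (-2.60 ± 0.36, adjusted p = 8.32e-05) also ranked among the 20 largest. The last read 5.11 to 5.34 on the distal arrays and 5.99, 9.36, 8.05 and 8.05 on the proximal arrays. Differences are compressed near background, so sizes are approximate where all 4 arrays of an end were under the filter level. This was so in the proximal end for Hpse2, Lhx9, 6330415B21Rik, Far2, Klhl14, Ptger2, Ret and Aqp4, and in the distal end for Crh, Epyc, Slitrk1, Tcf24, Myh8, Klhl41, 3110099E03Rik, Gbx2, Hoxa2, Camp, Coch, Myot and Fgf5. When a difference was required to exceed 1 by limma's treat, 7 genes remained: Alx1, Pax3, Dlg2, Sfrp4, Gdf5, Prokr2 and Crh.

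The maxilla, divided the same way, was examined with the same test. In control maxilla 0 of 13705 genes (0%) passed in limma, and 405 (2.96%) had an unadjusted p under 0.05. With array weights 153 were called. Some genes scattered more in maxilla, as Hey2 (SD 2.06 in distal maxilla, 0.28 in distal mandible) and Nefl (2.34 and 0.54 in the proximal ends). Others did not, as Gdf5 (0.23 and 0.45 in the distal ends). The 0 calls therefore do not show that the ends of the upper jaw are alike. Of the 664 genes called in the control mandible, 473 (71.2%) had the same sign in the maxilla, beside 60.1% of all genes tested. The difference between the 2 end differences was itself called for 42 genes (0.306%), 13 with a more positive difference in the mandible (0.0949%) and 29 with a more negative one (0.212%). At an unadjusted p under 0.05 there were 919 (6.71%). Between 12 and 54 genes were called on leaving out 1 array, with 12 without distal mandible array 4, 14 without proximal mandible array 3 and 13 without distal maxilla array 4 (20 to 27 without distal mandible array 2, proximal mandible array 2 or 4, distal maxilla array 2, or proximal maxilla array 2 or 3), and 132 were called without the arrays in doubt. The count was 8 with only the compared groups in the fit, 19 with the replicate block, of which 13 were among the 42, and 730 with array weights.

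Alx1 differed by 5.48 between the ends of the mandible and by 0.72 between those of the maxilla, where both ends were high at 12.87 ± 0.64 and 12.15 ± 1.27 (interaction 4.76 ± 0.67, adjusted p = 0.000877). Sfrp4 differed by 2.92 in the mandible and -0.09 in the maxilla (interaction adjusted p = 0.00423), Cbln4 by 2.66 and -0.33 (adjusted p = 0.0447), and Ret by 1.86 and -0.52 (adjusted p = 0.0353). The noncoding 6330415B21Rik (interaction 3.07) and the water channel gene Aqp4 (2.11) were the others of the 6 largest positive ones. Gdf5 differed by -2.30 in the mandible and 0.02 in the maxilla (adjusted p = 0.000319), and Crh by -3.73 and -0.14 (adjusted p = 0.0353). The remaining largest negative interactions were 3110099E03Rik (-2.81), the muscle gene Myot (-2.55), Dlx4os (-2.34) and Fgf5 (-2.30). Of the sarcomere list, Rapsn, Chrna1, Mybpc1 and Chrng were called, with interactions of -1.56, -2.06, -2.16 and -1.74. The list median was 0.13 in the maxilla, against -1.88 in the mandible.

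The knockout mandible gave the same measure on 8 arrays that share none with the control comparison. There 690 genes (5.03%) were called, 200 higher (1.46%) and 490 lower (3.58%) in the distal end. This count comes from the fit without pairing. Deviations of equal-numbered arrays correlated at 0.19 to 0.67 in this tissue, and with the number as a block 2191 were called. Without knockout distal array 2 the count was 450, and without knockout proximal array 1 it was 457. Of the 664 genes of the control mandible, 645 (97.1%) had the same sign in the knockout mandible, beside 67% of all genes tested, and 257 (38.7% of 664 and 37.2% of 690) were called there with the same sign. None was called with the opposite sign. The median size of the 664 differences was 0.85 in the control mandible and 0.55 in the knockout mandible, counted in the control's direction. Sizes of genes chosen as called in 1 data set are on average smaller in another, so the 2 medians are not compared.

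Alx1 differed by 5.67, Pax3 by 3.71, Gdf5 by -2.53, Nr2f1 by -2.26 and Hoxa2 by -2.86 in the knockout mandible, and all 5 were called there. In the knockout mandible 1 of 41 sarcomere genes was called lower and 0 higher, with a list median of -0.76, and of the epithelial list 0 were called higher and 1 lower, with a median of 0.32. Shh differed by 0.47 (adjusted p = 0.673), Glis3 by 0.24, Klhl14 by 0.28 and Crh by -0.83 in the knockout mandible, and none of these 4 passed there. Their interactions with genotype did not pass either, with adjusted p of 0.933, 0.762, 0.309 and 0.329, so a difference between genotypes was not shown for them. Of the macrophage and leukocyte genes, 20 of 26 were called lower in the distal end of the knockout mandible, with a list median of -1.19. The list differences between genotypes were not tested as lists.

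The end difference itself differed between the genotypes for 3 genes (0.0219%), and 581 (4.24%) had an unadjusted p under 0.05. With the replicate block 49 were called and with only the compared groups in the fit 51, in both cases including the 3. Emx2, a homeobox gene of jaw and brain, averaged 10.61 ± 0.14 in distal and 9.82 ± 0.79 in proximal control mandible, and 8.16 ± 0.23 in distal and 10.73 ± 0.36 in proximal knockout mandible. The difference was 0.79 in control, where the groups overlapped and it did not pass (adjusted p = 0.137), and -2.56 in knockout (adjusted p = 1.15e-06). The interaction was 3.35 ± 0.41 (adjusted p = 0.000144). A turn of sign was not shown, since the control difference did not pass. E330013P04Rik differed by 0.58 in control and -1.38 in knockout (interaction 1.96 ± 0.28, adjusted p = 0.00101). Lhfpl3 differed by -0.36 and -1.84 (interaction 1.48 ± 0.24, adjusted p = 0.00906), with all 8 control arrays under the filter level. Without the arrays in doubt 0 genes were called, and leaving out 1 array gave 3 to 6, with 6 without either control or knockout proximal array 2 and 5 without control distal array 4.

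**Figure D5:**
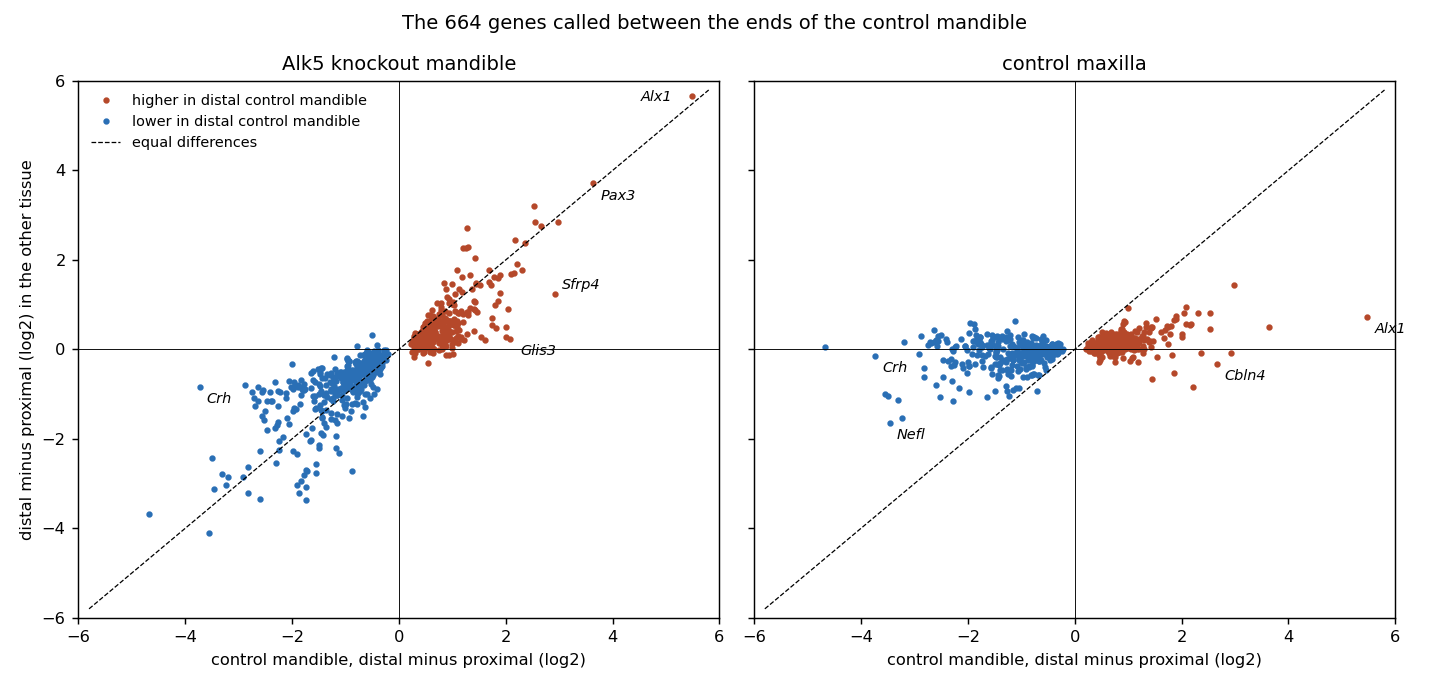
Each point is 1 of the 664 genes called in control mandible, with its control mandible difference on the horizontal axis (log2, distal minus proximal) and its difference in the knockout mandible (left) or control maxilla (right) on the vertical axis and equal differences as a dashed line. In the knockout mandible 97.1% have the same sign and in the maxilla 71.2%, where most points lie near 0 and Alx1 lies at 0.72.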

How the data were processed

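Whole-tissue RNA of dissected jaw ends was hybridised to 1-colour Affymetrix arrays with 45101 probe sets, 1 array per sample. The deposited values are on a log2 scale made with RMA, per the submitters' processing notes, whose version is not given in the sources used here. RMA corrects background, equalises the distributions of all arrays and summarises each probe set, so global shifts between arrays are removed. The number of arrays limits the precision. All value columns belonged to mapped samples.

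Probe sets were named through the platform annotation: 34945 had 1 gene symbol, 932 several and 9160 none, and 64 were manufacturer controls. Updating through Entrez identifiers matched 34741 and changed 0 symbols. Probe sets above their array's percentile 40 (6.68 to 6.72 on the 8 control mandible arrays, called the filter level) on at least 4 arrays were kept (29356), and each of 13705 genes was represented by its probe set of highest mean over 32 arrays. Of the 54 called named genes with another probe set past the filter, Nrp2 had 1 of opposite sign. Only signs were counted, and the sizes could differ. Another probe set showed little difference for several genes, among them Ret (0.20 against 1.86), Aqp4 (0.18 against 1.45), Foxl2 (-0.16 against -1.23) and Fgfr2 (0.09 against 0.62). The same held for Fgfr4 (-0.19 against -1.28), Jag1 (0.14 against 0.64), Epcam (0.14 against 0.81) and Meis1 (-0.26 against -1.18). It held too for Col25a1 (-0.19 against -1.07) and Jam3 (-0.07 against -0.57). Another probe set showed a larger difference for Lox (-2.31 against -1.73) and Smoc2 (-2.07 against -1.17). Tests used limma 3.58.1 in R 4.3.3 with 8 group means over 32 arrays (24 residual degrees of freedom), moderated variances and Benjamini-Hochberg adjustment over all genes, called at an adjusted p of 0.05. The fit was tested on simulated data.

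Named genes were the 20 largest called, non-overlapping differences in each direction, called members of 34 gene lists (up to 6 per direction where more were called), known jaw genes, the 6 largest called interactions per direction, and Tgfbr1 and Xist. The comparison and lists were chosen with earlier results of these data known.

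Replicate numbers from the labels were checked for pairing by correlating the deviations of equal-numbered arrays from their group means. The correlations were 0.67, 0.19, 0.28 and 0.32 in knockout mandible, all above 0.1. Knockout distal arrays 2 and 3 nevertheless correlated best with proximal array 4, so pairing by number was not settled there. The knockout p-values given come from the fit without pairing, and the count with the replicate block is given as an alternative. In control maxilla they were 0.72, -0.36, -0.26 and 0.1. There distal array 2 correlated best with proximal array 3, and distal array 3 with proximal array 2. Alternatives covered the filter, probe-set rule, scaling, arrays in the fit, replicate block, number 1, array weights, variance trend, minimum size and single-array omissions.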

Additional observations from a re-analysis of the deposited data

Results flagged for a closer look

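Some values stood far from the other 3 arrays of their group. This held for 32 of 346 groups of 4 (9.25%), where chance gives about 1 in 20, and 14 of the 32 were on proximal array 1 and 7 on distal array 1. Lying above the others on distal array 1 were Sfrp4 at 11.88 (others 9.58 to 9.94), Epyc at 6.20 (others 5.28 to 5.33), Jag1 at 12.21 (others 11.70 to 11.76) and Col14a1 at 9.0 (others 6.95 to 7.30). Mymk was also high there at 7.82 (others 7.26 to 7.33). Lying below the others on distal array 1 were Dlx6os1 at 7.71 (others 9.01 to 9.25) and Bambi at 11.31 (others 11.65 to 11.67). High on distal array 2 was Xist at 13.91 (others 6.38 to 6.84). Low on that array was Lmo1 at 10.32 (others 10.84 to 10.94). High on distal array 3 was Smad7 at 10.87 (others 10.46 to 10.53). Low on that array was Far2 at 6.69 (others 7.74 to 7.95). Lying below the others on distal array 4 was Nr2f2 at 11.29 (others 11.80 to 11.88). Lying above the others on proximal array 1 were Sfrp4 at 8.0 (others 7.03 to 7.17), Jag1 at 11.68 (others 11.01 to 11.12), Bambi at 10.51 (others 9.94 to 10.03) and Fgf12 at 9.03 (others 7.35 to 7.63). Also high on that array were Tnfsf11 at 7.81 (others 5.15 to 5.54) and Lox at 13.34 (others 12.46 to 12.52). Lying below the others on proximal array 1 were Hoxa2 at 4.95 (others 8.62 to 9.34) and Jam3 at 10.80 (others 11.12 to 11.14). Lying above the others on proximal array 2 were Dlx6os1 at 11.49 (others 10.64 to 10.75) and Xist at 13.53 (others 6.53 to 6.84). Lying below the others on proximal array 2 was Cdh15 at 8.92 (others 9.49 to 9.52). On proximal array 3 the high value was Nr2f2 at 13.32 (others 13.10 to 13.13). On proximal array 4 it was Otx1 at 7.75 (others 7.46 to 7.49). Among list means, proximal array 1 stood above the others for the FGF list at 9.69 (others 9.39 to 9.43), the TGF-beta list at 10.81 (others 10.50 to 10.54) and the guidance list at 10.30 (others 10.02 to 10.06). It did so also for the bone list at 10.83 (others 8.78 to 8.99), the tendon list at 10.85 (others up to 10.07) and the matrix list at 11.54 (others 10.99 to 11.05). Proximal array 2 stood below the others for the sarcomere list at 8.91 (others 9.52 to 9.61).

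The end difference of the control mandible differed from that of the control maxilla, by limma's interaction at an adjusted p of 0.05, for genes named in the comparison of the jaws or above. The interactions (mandible minus maxilla, log2) were 4.76 for Alx1, 3.07 for 6330415B21Rik, 3.01 for Sfrp4, 2.99 for Cbln4, 2.38 for Ret, 2.11 for Aqp4 and 2.08 for Dlg2. They were -3.59 for Crh, -2.81 for 3110099E03Rik, -2.34 for Dlx4os, -2.32 for Gdf5, -2.30 for Fgf5, -2.09 for Gbx2, -1.88 for Dlx4, -1.71 for Bmper, -1.29 for Smoc2 and -0.98 for Nfatc1. Muscle genes gave -2.55 for Myot, -2.16 for Mybpc1, -2.06 for Chrna1, -1.74 for Chrng and -1.56 for Rapsn. The end difference of the control mandible differed from that of the knockout mandible by 3.35 for Emx2, 1.96 for E330013P04Rik and 1.48 for Lhfpl3 (control minus knockout, log2).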

How the results depend on the processing

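For the control mandible, leaving out 1 array gave 342 to 722 called genes, array weights gave 4445, and limma's treat at a difference of 1 gave 7. The other settings gave 527 to 937, among them 899 with the replicate block. The numbers were not taken to pair these arrays, because the correlation for number 3 was 0.01 (0.54, 0.42 and 0.30 for numbers 1, 2 and 4). Distal arrays 1, 2 and 4 nevertheless correlated best with the proximal array of their own number, and in knockout mandible distal arrays 1 and 4 did. Whether the control mandible arrays are paired was therefore not settled, and counts with the block are given as an alternative. For the difference between jaws, against 42, counts were 8 with only the groups compared, 19 with the replicate block, 81 with number 1 as a covariate, 122 without number 1, 730 with array weights, 132 without the arrays in doubt and 12 to 54 on leaving out 1 array. For the difference between genotypes, against 3, they were 8 with a stricter filter, 6 with repeated quantile normalization, 51 with only the groups compared, 49 with the replicate block, 13 with number 1 as a covariate, 583 with array weights, 9 with an intensity trend, 0 without the arrays in doubt and 3 to 6 on leaving out 1 array. For the knockout mandible, against 690, they were 1622 with only the groups compared, 2191 with the replicate block, 3979 with array weights and 450 to 659 on leaving out 1 array. For the control maxilla, against 0, they were 1 without the filter, 1 with probe sets averaged, 153 with array weights and 0 to 4 on leaving out 1 array. The cause of these changes was not tested. None of the 124 called named genes changed sign under the alternatives run. Over the named genes, 2359 gene-by-setting values kept direction and side of the threshold, 359 lost the call and 22 gained one. Without the arrays in doubt 76 of 124 named calls were kept, and 62 held there and in all 8 single-array omissions. Signal near the filter level limits the sizes of the genes named as approximate.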
